A study of Mus musculus with 10 samples.

Results

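The cytosolic ribosomal proteins were taken as the protein-coding genes whose symbols begin with Rpl or Rps followed by a number, or with Rplp, leaving out S6 kinases and symbols that mark pseudogenes. This gave 84 of the 24888 genes in the table, 51 of the large subunit (Rpl) and 33 of the small subunit (Rps). They were measured by RNA sequencing of poly(A) RNA from the hearts of 10 mice. In 5 SPOP_CKI hearts (genotype CKI) SPOP, the substrate adaptor of a cullin ubiquitin ligase, was overexpressed in heart muscle through Cre recombinase under the α-myosin heavy chain promoter. The other 5 hearts, called Cre_control, are titled wild type and carry the genotype Myh6Cre, so that both groups carry Cre. All animals are labelled male, 8 to 10 weeks old and under sham conditions, and the RNA came from heart tissue with all its cell types. In such tissue, fewer cells of a type and less RNA per cell cannot be told apart.

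Cytosolic ribosomal proteins are the protein part of the ribosome, which reads messenger RNA and joins amino acids. They are made in large amounts in all cells, and most of their messenger RNAs begin with a terminal oligopyrimidine (TOP) element, through which mTORC1, the nutrient-sensing kinase complex, controls their translation more than their amount. A few genes have paralogs used in particular tissues. Rpl3l is the paralog of Rpl3 found in heart and skeletal muscle, and Rpl3 is the form found in most other tissues and in growing muscle.

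Spop, the targeted gene, averaged 31897 ± 6254 scaled reads in SPOP_CKI hearts, against 3425 ± 317 in Cre_control hearts (SD, n = 5 each), and depth was 15316293 to 17114869 reads per library. A scaled read is a read divided by the authors' size factor for its library. Several points about the libraries touch the results. First, 3 libraries labelled male (SPOP_CKI 1, SPOP_CKI 3 and Cre_control 5) held reads of Xist, the female-specific RNA, and 0 reads of the Y-linked genes Ddx3y, Eif2s3y, Kdm5d and Uty, and results are also given without them. Second, SPOP_CKI 3 stood apart in how its ribosomal protein genes deviated, as described below. Last, of 10 cardiomyocyte marker genes 2 were higher and 3 lower by the test used here, with a summed level of 363599 to 645105 scaled reads in SPOP_CKI hearts, against 589208 to 756520 in Cre_control. All 10 cardiomyocyte markers were tested and none of them was at 0 in all libraries. Such sums rest most on the most abundant markers. Myh6, called lower, averaged 97162 ± 64722 scaled reads in SPOP_CKI and 249198 ± 29585 in Cre_control. Actc1, called higher, averaged 156876 ± 43745 in SPOP_CKI and 80820 ± 24991 in Cre_control. The 8 endothelial markers summed to 17684 to 29042 scaled reads in SPOP_CKI hearts, against 43133 to 59158 in Cre_control. Among them Fabp4 averaged 5423 ± 3642 in SPOP_CKI and 23284 ± 6106 in Cre_control. Of the 8 endothelial markers 5 were lower and 0 higher, and 5 of 6 tested markers of activated fibroblasts were higher. Over all genes tested, 10% were called higher and 12.3% lower. The part of these cell type markers in the results below was not tested.

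The base sequence before the transcription start is shown for the 7 members that passed the test below and for which a RefSeq promoter window was given, so that the muscle paralog can be read beside the others. Each line gives the 120 bases before the RefSeq start (GRCm38.p6), in the direction of transcription. This start lies 137 bases from the start of the deposited gene model for Rpl41, 91 for Rpl28 and 72 for Rpl22l1. For the others the distance is 0 to 22 bases. Capitals mark the searched motifs: the E-box CAGCTG, the letters bound by muscle basic helix-loop-helix factors; CCGGAAG, bound by ETS factors; GGGCGG, bound by Sp1; and TATAAA, the TATA box. Each motif was searched on both strands, so that CCGCCC is GGGCGG on the other strand, and matches to TATAAA may overlap.
Rpl3l at chr17:24727706-24727825, plus strand: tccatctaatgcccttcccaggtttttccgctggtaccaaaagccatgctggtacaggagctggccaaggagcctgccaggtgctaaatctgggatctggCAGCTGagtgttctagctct
Rpl7l1 at chr17:46782657-46782776, minus strand: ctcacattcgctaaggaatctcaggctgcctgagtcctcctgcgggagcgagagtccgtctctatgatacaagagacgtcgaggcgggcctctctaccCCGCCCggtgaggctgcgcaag
Rpl22l1 at chr3:28805388-28805507, plus strand: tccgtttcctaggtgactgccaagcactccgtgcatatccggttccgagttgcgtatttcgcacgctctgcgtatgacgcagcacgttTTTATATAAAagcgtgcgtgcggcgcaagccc
Rpl41 at chr10:128549169-128549288, minus strand: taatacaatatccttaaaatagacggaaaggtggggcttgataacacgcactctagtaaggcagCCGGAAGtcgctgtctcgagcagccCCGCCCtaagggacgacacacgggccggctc
Rps27rt at chr9:114982740-114982859, minus strand: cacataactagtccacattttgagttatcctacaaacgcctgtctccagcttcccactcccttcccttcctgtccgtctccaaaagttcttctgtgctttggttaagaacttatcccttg
Rpl28 at chr7:4792845-4792964, plus strand: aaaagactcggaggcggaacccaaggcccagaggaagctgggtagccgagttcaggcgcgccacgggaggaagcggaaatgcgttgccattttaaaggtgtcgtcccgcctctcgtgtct
Rps15 at chr10:80292311-80292430, plus strand: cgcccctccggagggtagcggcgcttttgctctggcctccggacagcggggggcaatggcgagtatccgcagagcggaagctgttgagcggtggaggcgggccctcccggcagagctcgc

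Of E-box letters only CAGCTG was searched, and others are not marked. The printed Rpl3l stretch holds CAGCTG 20 bases before the start and none of the ETS, Sp1 or TATA letters. Those of Rps27rt, Rpl28 and Rps15 hold none of these letters. Within 250 bases before the start, CAGCTG was present for 3 of 64 members with a window (4.69%), against 14.7% of 27025 genes. The ETS letters were present for 18 members (28.1%), against 7.83% of genes, and GGGCGG for 33 members (51.6%), against 35.4%. TATAAA was present for 4 members (6.25%), against 14.3%. AAGATGG, bound by YY1, was present for 5 members (7.81%), against 5.18%. A match describes the letters and says nothing on whether a factor is bound.

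Across the ribosomal protein genes, Rpl3l fell, Rpl3 rose, and most members did not pass the test. By limma with Benjamini-Hochberg adjustment at 0.05, 3 of the 82 tested members were higher in SPOP_CKI (Rps27rt, Rpl3 and Rpl7l1) and 7 were lower (Rpl3l, Rps15, Rpl41, Rpl28, Rpl36, Rpl22l1 and Rpl8). The background over all 14212 genes tested was 22.3% called in either direction, 10% higher and 12.3% lower, so the 12.2% of members called was below it. With each library centred by gene length the counts were 4 higher and 5 lower, where 20.996% of all genes were called. With centring by transcript GC content they were 3 higher and 3 lower, where 17.99% of all genes were called. The remaining members, Rpl39l and Rpl36al, were too low to test, at no more than 6.43 scaled reads in any library.

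The members' median log2 fold change was -0.18, against -0.11 over all genes tested, and it was 0.06 with centring by gene length. Quantile normalization moved the median of all genes to 0.03. Estimates were positive for 26 members and negative for 56. The large subunit had 2 members higher and 6 lower of 49 tested, with a median of -0.28. The small subunit had 1 higher and 1 lower of 33, with a median of -0.04. Whether the 2 subunits differ was not tested. Of the 72 members that were not called, 55 had an estimate within 0.5 of 0 on the log2 scale, and for 52 the 95% limma interval lay wholly within 1 of 0.

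**Figure D1:**
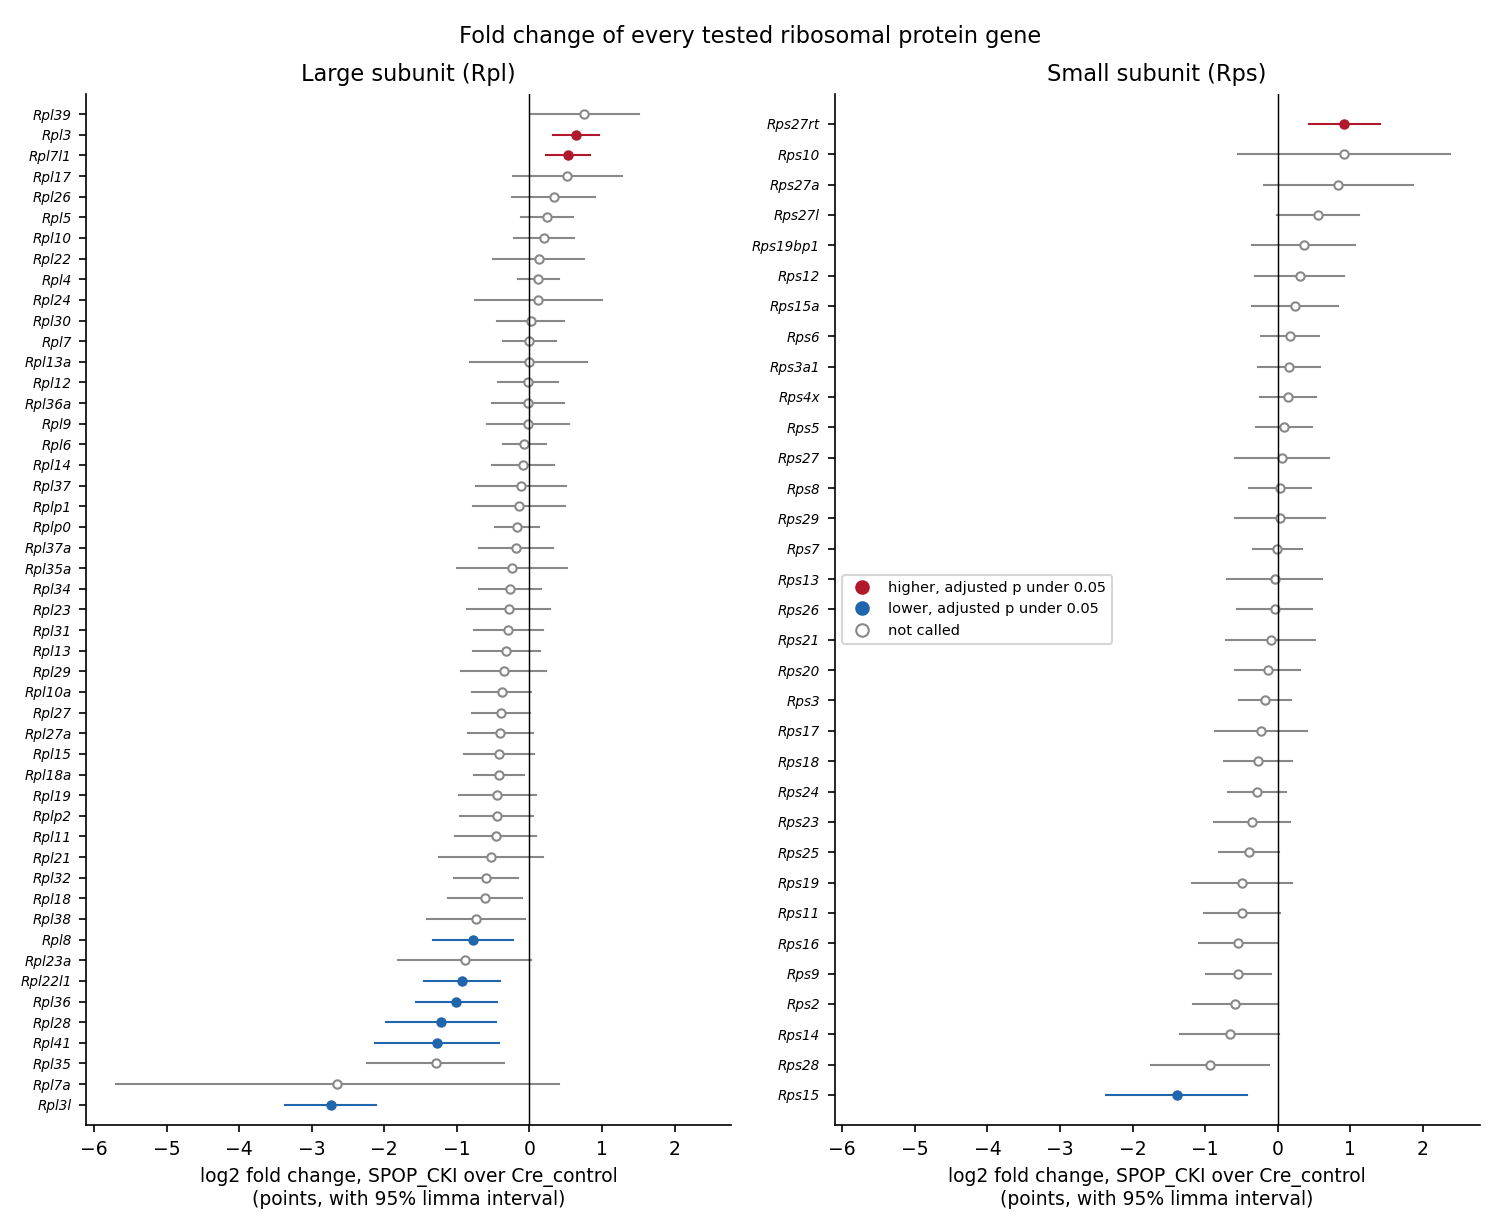
Log2 fold change of SPOP_CKI over Cre_control (horizontal axis) with its 95% limma interval for each of the 82 tested members, large subunit on the left and small subunit on the right. Filled points mark members called at an adjusted p under 0.05 (red higher, blue lower). Rpl3l stands at -2.74, and the interval of Rpl7a, which was at 0 in SPOP_CKI 3, is the widest.

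Groups that did not overlap are a simpler view of the same values. For 2 members, Rpl3 and Rpl7l1, every SPOP_CKI library was above every Cre_control library (9.01% of all genes tested), and for 5, Rpl28, Rpl32, Rpl36, Rpl3l and Rpl41, every SPOP_CKI library was below (12.3% of all genes tested). The other 75 members overlapped. In the authors' deposited table, 4 members were called higher, with Rpl39 beside the 3 above, and 10 lower, where 26.5% of the genes tested here had an adjusted p-value under 0.05.

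The summed share of reads taken by the 84 members was 1.82% ± 0.451 in SPOP_CKI and 1.73% ± 0.386 in Cre_control (SD, n = 5 each). Single libraries held 1.93%, 1.91%, 2.35%, 1.80% and 1.11% in SPOP_CKI and 1.82%, 1.63%, 1.38%, 2.35% and 1.47% in Cre_control. The ranges overlapped almost wholly, and SPOP_CKI 5 had the lowest share.

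The largest change among the called members was that of Rpl3l (ENSMUSG00000002500, mm10 chromosome 17, 24727820 to 24736143, plus strand). It stood at 434, 309, 341, 294 and 932 scaled reads in SPOP_CKI libraries 1 to 5, and at 3070, 2804, 2398, 3272 and 2495 in Cre_control libraries 1 to 5. All SPOP_CKI libraries lay far below all Cre_control libraries, and SPOP_CKI 5 was the highest of its group. The means were 462 ± 268 in SPOP_CKI and 2808 ± 371 in Cre_control (SD, n = 5 each). The log2 fold change was -2.74 (SE 0.28, 95% interval -3.36 to -2.12, limma adjusted p = 0.000284), a 6.68-fold lower level. The call held under all 22 alternatives.

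Its partner Rpl3, the general form of the same large-subunit protein near the site of peptide bond formation, moved the other way (ENSMUSG00000060036, chromosome 15, 80077791 to 80091868, minus strand). Rpl3 stood at 6025, 7161, 6399, 6168 and 5709 scaled reads in SPOP_CKI hearts, against 4535, 4166, 3198, 3986 and 4300 in Cre_control. The groups did not overlap, and the means were 6293 ± 546 in SPOP_CKI and 4037 ± 510 in Cre_control. Rpl3 rose 1.56-fold (log2 0.65, SE 0.15, limma adjusted p = 0.0104), and this call also held under all 22 alternatives.

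Set per kilobase of gene model, Rpl3l averaged 281 in SPOP_CKI and 1709 in Cre_control, and Rpl3 averaged 1982 in SPOP_CKI and 1271 in Cre_control. On this length Rpl3l made up 12.3% ± 6.73 of the pair in SPOP_CKI (7.70% to 24.0%) and 57.3% ± 3.18 in Cre_control (52.9% to 61.3%). The gene models span 1643 bases for Rpl3l and 3175 for Rpl3, while the longest protein-coding transcripts span 1375 and 1351. Per kilobase of those transcripts, an alternative chosen after seeing the data, the share of Rpl3l was 6.79% ± 4.05 in SPOP_CKI (4.07% to 13.8%) and 40.6% ± 3.13 in Cre_control (36.3% to 44.6%). Rpl3l was the less abundant of the pair in all 5 SPOP_CKI libraries on both lengths, whereas in Cre_control it was the more abundant in 5 libraries by gene model and in 0 by transcript, so their order in Cre_control hearts is not settled. The log2 difference Rpl3l minus Rpl3 differed by -3.39, SPOP_CKI minus Cre_control (two-sided exact permutation p = 0.0079, the smallest that 252 arrangements can give). Both genes separated the groups in opposite directions, so this p follows from the values above and is no further test. The longest protein-coding transcripts of the genes share 77.3% identity over 1228 aligned bases, with a longest identical run of 22 bases.

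**Figure D2:**
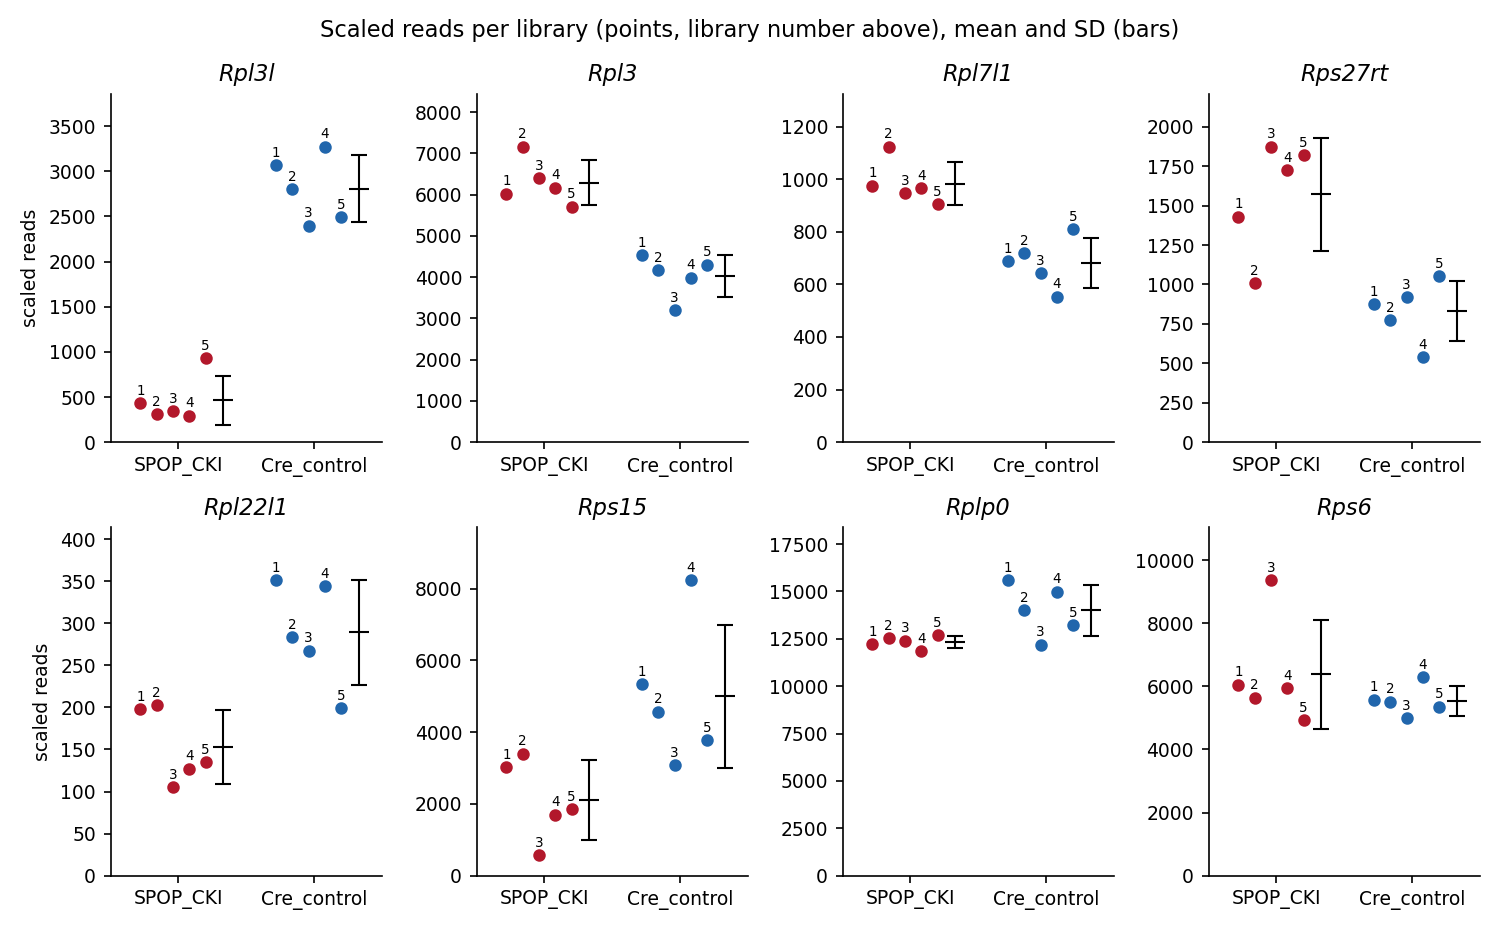
Scaled reads (vertical axis, from 0) per library for 8 members, with SPOP_CKI libraries in red on the left and Cre_control libraries in blue on the right of each panel. Points are libraries with their numbers, and bars give the mean and SD. Rpl3l and Rpl3 do not overlap between groups, while Rplp0 and Rps6 do.

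The other paralogs were described pair by pair, since they differ from their partners in tissue and role. Rpl7l1, whose yeast counterpart acts in assembly of the large subunit, stood at 976, 1123, 948, 964 and 906 scaled reads in SPOP_CKI hearts, against 688, 718, 642, 554 and 809 in Cre_control. The groups did not overlap, and Rpl7l1 rose 1.45-fold (log2 0.53, SE 0.14, limma adjusted p = 0.0187). The call was lost without a filter on low values (adjusted p = 0.0554) and held under the other 21 alternatives, with adjusted p from 0.00305 to 0.0471, the highest when a library was left out. Its partner Rpl7 averaged 7957 ± 1865 in SPOP_CKI and 7813 ± 273 in Cre_control and was not called (log2 0.00, 95% interval -0.36 to 0.36, limma adjusted p = 0.999).

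Rpl22l1, the paralog of the RNA-binding protein Rpl22, stood at 198, 202, 105, 127 and 135 scaled reads in SPOP_CKI hearts, against 351, 283, 268, 344 and 199 in Cre_control. The lowest Cre_control library lay beside the highest SPOP_CKI libraries. Rpl22l1 fell 1.90-fold (log2 -0.93, SE 0.24, limma adjusted p = 0.0185), and the adjusted p was 0.0558 without Cre_control 1 and 0.0524 without Cre_control 4, with a range over the 22 alternatives of 0.00412 to 0.0558. Rpl22 was not called (log2 0.13, limma adjusted p = 0.771). Rpl22l1 made up 8.00% ± 3.54 of its pair per kilobase of gene model in SPOP_CKI and 13.9% ± 1.74 in Cre_control. Per kilobase of the longest protein-coding transcript it made up 17.8% ± 7.40 in SPOP_CKI and 29.0% ± 3.05 in Cre_control.

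Rps27rt, a single-exon copy of Rps27, stood at 1430, 1007, 1873, 1726 and 1821 scaled reads in SPOP_CKI hearts, against 875, 772, 917, 537 and 1050 in Cre_control. SPOP_CKI 2 lay below Cre_control 5, and the other SPOP_CKI libraries lay above all controls. It was called higher (log2 0.92, SE 0.22, limma adjusted p = 0.0140), under all 22 alternatives too. The value is uncertain, because its transcript is identical to that of Rps27 over 310 aligned bases, so reads of the 2 genes cannot be told apart over most of their length. Rps27 itself averaged 3883 ± 1466 in SPOP_CKI and 3636 ± 1148 in Cre_control (log2 0.06, limma adjusted p = 0.906). The sum of the 2 genes was 5455 ± 1576 in SPOP_CKI and 4466 ± 1044 in Cre_control, and the groups overlapped. The further paralog Rps27l, a p53 target, was at 1345 ± 526 in SPOP_CKI and 869 ± 154 in Cre_control and was not called (log2 0.56, limma adjusted p = 0.139).

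Among the subunit proteins without a tissue paralog, 5 were called lower: Rps15, Rpl41, Rpl28, Rpl36 and Rpl8. Rps15, a small-subunit protein near the decoding site that is needed for export of its precursor from the nucleus, stood at 3024, 3398, 579, 1697 and 1862 scaled reads in SPOP_CKI hearts, against 5346, 4573, 3084, 8239 and 3781 in Cre_control. The groups overlapped, with SPOP_CKI 3 lowest and Cre_control 4 highest (log2 -1.39, SE 0.44, limma adjusted p = 0.0433).

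Rpl41, a very short basic peptide of the large subunit, stood at 2627, 2705, 1040, 2073 and 929 scaled reads in SPOP_CKI hearts, against 4793, 3682, 2806, 8548 and 2777 in Cre_control (log2 -1.27, SE 0.39, limma adjusted p = 0.0371). Rpl28 stood at 2086, 2581, 608, 1524 and 1343 in SPOP_CKI and at 3925, 3541, 2591, 4808 and 2698 in Cre_control (log2 -1.22, SE 0.35, limma adjusted p = 0.0277). For both genes the groups were separate by a narrow gap, with SPOP_CKI 2 just under the lowest control.

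Rpl36 stood at 2019, 1674, 1869, 1514 and 1199 scaled reads in SPOP_CKI hearts, against 4019, 3258, 2167, 5540 and 2385 in Cre_control (log2 -1.01, SE 0.26, limma adjusted p = 0.0179). Rpl8, which lies near the peptidyl transferase centre, stood at 4017, 4161, 2026, 3123 and 2972 in SPOP_CKI and at 6466, 5895, 3740, 7747 and 4231 in Cre_control (log2 -0.78, SE 0.25, limma adjusted p = 0.0459). For Rpl36 the groups were separate, and for Rpl8 they overlapped.

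Each of these 5 calls was lost in at least 1 of the 10 fits that left out a library, while those of Rpl3l and Rpl3 were lost in 0. The number of members called lower was 1 without Cre_control 1, 2 without Cre_control 4, 3 without SPOP_CKI 4 or without Cre_control 2, and 4 without SPOP_CKI 5, and it was 10 without SPOP_CKI 3. The share of all genes called in either direction moved as well. It was 13.8% without Cre_control 1, 13.9% without Cre_control 4, 16.8% without SPOP_CKI 4, 15.0% without Cre_control 2, 23.7% without SPOP_CKI 5 and 31.0% without SPOP_CKI 3. The highest adjusted p over the 10 fits that left out a library was 0.108 for Rps15, 0.0861 for Rpl41, 0.0740 for Rpl28, 0.0510 for Rpl36 and 0.113 for Rpl8. Of the 22 alternatives, Rps15 was called in 12, Rpl41 in 14, Rpl28 in 18, Rpl36 in 20 and Rpl8 in 11. With centring by GC content the log2 fold change of Rpl36 was -0.26 (limma adjusted p = 0.674, against 0.000935 as the lowest over the alternatives). Without the 3 libraries with Xist reads, 3 members were higher and 12 lower (18.3%), where 30.8% of all genes tested were called, and the members' median was -0.39, against -0.02 over all genes.

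Rpl7a and Rpl35 were past a change of 1 on the log2 scale but were not called. Rpl7a, a large-subunit protein that binds ribosomal RNA early in assembly, stood at 491, 330, 0, 128 and 161 scaled reads in SPOP_CKI hearts, against 603, 424, 398, 814 and 398 in Cre_control. SPOP_CKI 3 was at 0, and the log2 estimate of -2.65 had a 95% interval of -5.70 to 0.40 (limma adjusted p = 0.188). Rpl35 stood at 1308, 1534, 232, 814 and 745 in SPOP_CKI and at 2285, 2135, 1355, 2306 and 1651 in Cre_control (log2 -1.29, limma adjusted p = 0.0520). The adjusted p of Rpl35 was 0.0171 by limma without SPOP_CKI 3 and 0.0256 by DESeq2. It was 0.0728 by edgeR and 0.0547 by limma with centring by GC content. Rpl32, whose groups were separate, had a log2 fold change of -0.60 and just missed the threshold (limma adjusted p = 0.0523). Rpl7a, Rpl35, Rpl32 and Rpl8 were picked out after their values were seen.

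The messenger RNAs of Rplp1 and Rplp0, proteins of the ribosomal stalk, which recruits elongation factors, were among the most abundant. Per kilobase of gene model, Rplp1 averaged 17268 over all libraries, Rplp0 7938 and Rps3a1, of the small subunit, 7582. The median of the tested members was 1706. Rplp0 stood at 12211, 12538, 12403, 11858 and 12686 scaled reads in SPOP_CKI hearts, against 15593, 14021, 12192, 14982 and 13202 in Cre_control. These ranges overlapped through Cre_control 3, and Rplp0 was not called (log2 -0.18, 95% interval -0.48 to 0.13, limma adjusted p = 0.371). Rplp1 (log2 -0.14, adjusted p = 0.744), Rplp2 (log2 -0.45, adjusted p = 0.178) and Rps3a1 (log2 0.15, adjusted p = 0.599) were not called by limma either.

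Ribosomal proteins with roles beyond the subunit were also measured. Rps6, the small-subunit substrate of S6 kinase downstream of mTORC1, stood at 6054, 5640, 9364, 5941 and 4918 scaled reads in SPOP_CKI hearts, against 5579, 5509, 4997, 6288 and 5359 in Cre_control, with the high value in SPOP_CKI 3 (log2 0.17, limma adjusted p = 0.517). Rpl5 and Rpl11, which bind MDM2 and so stabilise p53 when ribosome assembly fails, had log2 fold changes of 0.24 (limma adjusted p = 0.307) and -0.46 (limma adjusted p = 0.208). Rps19, mutated in human Diamond-Blackfan anaemia, had a log2 fold change of -0.49 (limma adjusted p = 0.277). Rpl38, needed for axial patterning in the mouse embryo, had -0.74 (limma adjusted p = 0.106).

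Rps3, which also acts in DNA repair, had a log2 fold change of -0.17 (limma adjusted p = 0.454). Rpl10a had -0.38 (adjusted p = 0.160), Rps25 -0.40 (adjusted p = 0.153) and Rpl26, which binds the p53 messenger RNA, 0.33 (adjusted p = 0.371), all by limma. Rps19bp1, which matches the symbols but encodes a binding partner of Rps19 and not a ribosomal protein, had 0.36 (limma adjusted p = 0.443). None of these passed the test. For Rps3, Rpl10a, Rps25, Rpl26 and Rps19bp1 the intervals allow changes of either sign.

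The 4 X-linked members were Rpl39, Rpl10, Rps4x and Rpl36a, and 0 of them were called. Rpl39 stood at 3019, 2369, 8196, 4103 and 1697 scaled reads in SPOP_CKI hearts, against 1994, 1740, 2089, 2142 and 1937 in Cre_control, with 4 SPOP_CKI libraries above all controls and SPOP_CKI 5 below them (log2 0.75, limma adjusted p = 0.134). Without SPOP_CKI 5, the limma adjusted p of Rpl39 was 0.0404, and 6 members were called higher, where 23.7% of all genes were called. Without SPOP_CKI 3, Rpl39 had a log2 fold change of 0.43 (limma adjusted p = 0.151). Leaving out the 3 libraries with Xist reads gave 0.36 (limma adjusted p = 0.330). Over the 22 alternatives its adjusted p ranged from 0.0116 to 0.330. Rpl10 (log2 0.20), Rps4x (log2 0.14) and Rpl36a (log2 -0.02) had groups that overlapped.

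Rps27a, which encodes ubiquitin fused to a small-subunit protein, stood at 2561, 3982, 4969, 1439 and 902 scaled reads in SPOP_CKI hearts, against 2905, 1104, 933, 1107 and 1096 in Cre_control, which overlapped (log2 0.84, limma adjusted p = 0.216). Other genes of cytosolic ribosomal proteins or ribosome-bound proteins have symbols outside the rule used here. Of these, Rpsa, also known as a laminin receptor (log2 0.11), Rack1, a signalling scaffold on the small subunit (log2 -0.05), and Fau, a fusion to a ubiquitin-like protein (log2 -0.43), were not called.

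A few members were listed at low levels. Per kilobase of gene model, Rps10 averaged 7.72 over all libraries, Rpl24 48.2 and Rpl13a 57.0, and 53 members were among the 500 highest genes tested. Ribosomal protein genes have many near-identical pseudogenes, and the part of reads shared between a gene and its copies was not tested. The table held 167 pseudogene entries of ribosomal proteins with 0.0558% to 0.110% of reads. These entries are not all of cytosolic ribosomal proteins, since Mrps36-ps1 and Mrpl23-ps1 of the mitochondrial family are among them. Of the 60 that were tested, 1 was higher and 0 lower, where 22.3% of all genes were called.

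That entry, named after its values were seen, was Rpl3-ps1. It stood at 603, 549, 796, 680 and 561 scaled reads in SPOP_CKI hearts, against 315, 314, 261, 359 and 318 in Cre_control (log2 1.02, SE 0.15, limma adjusted p = 0.00170). The groups did not overlap, and its direction was that of Rpl3. Reads of Rpl3 and of this copy cannot be told apart where their sequences are the same.

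**Figure D3:**
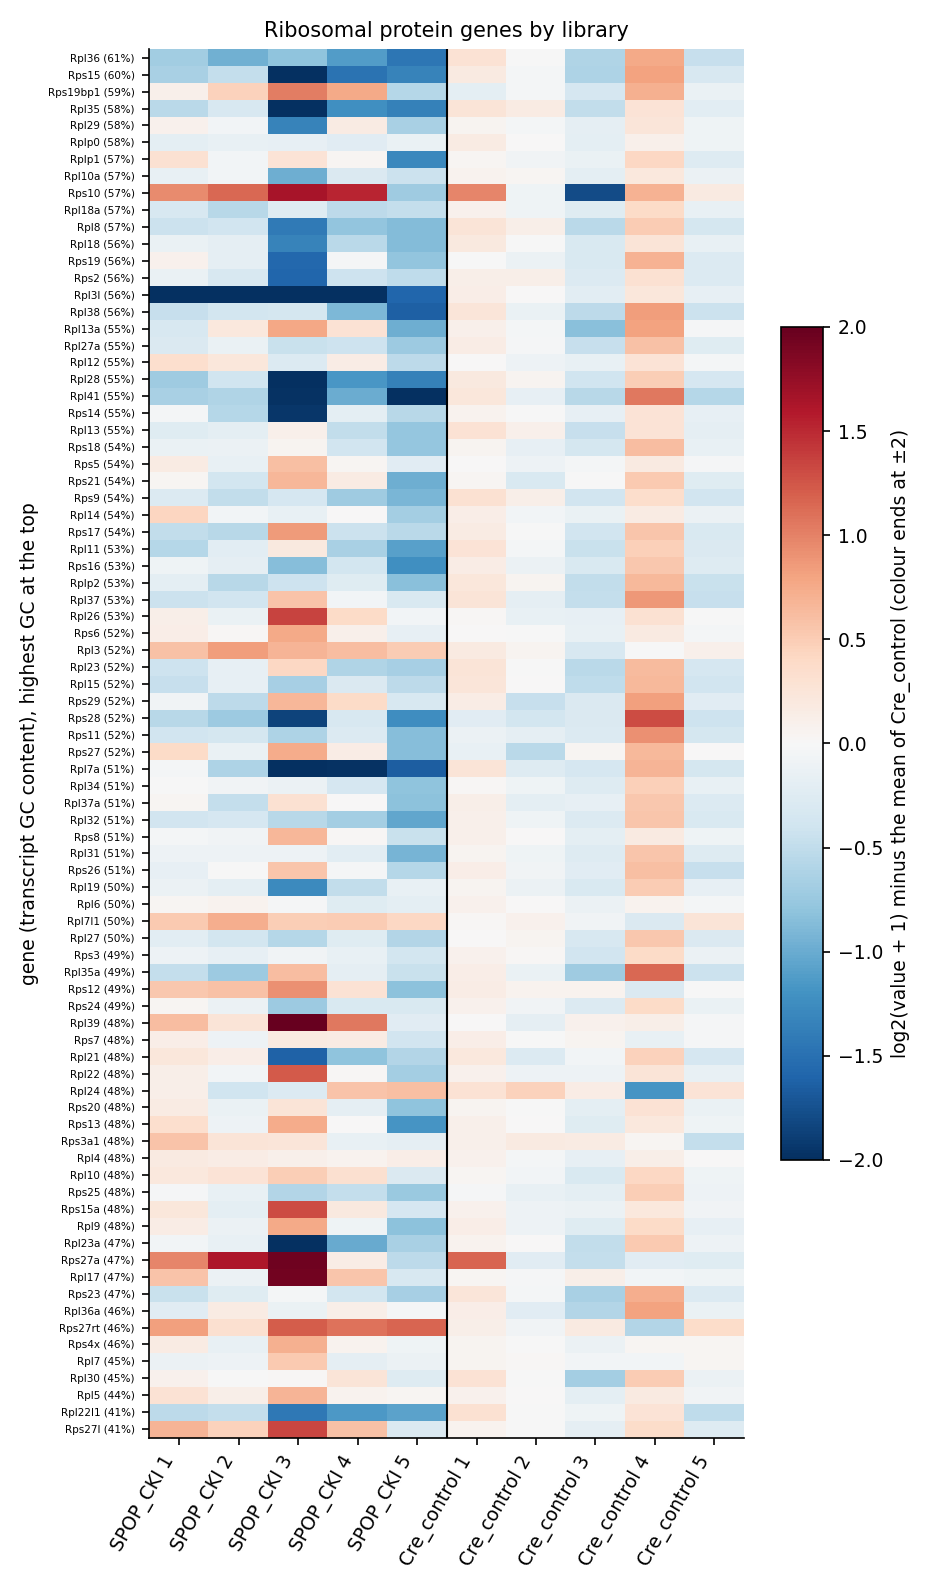
Deviation of each tested member from its Cre_control mean on the log2(scaled reads + 1) scale (colour), with SPOP_CKI libraries 1 to 5 on the left and Cre_control libraries 1 to 5 on the right. Rpl3l is low in all 5 SPOP_CKI libraries, and SPOP_CKI 3 holds both the strongest positive and the strongest negative deviations.

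The deviations differed between libraries and between members. The median deviation of the members from their Cre_control means was -0.04, -0.15, 0.00, -0.18 and -0.62 on the log2 scale in SPOP_CKI libraries 1 to 5, and 0.11, -0.04, -0.26, 0.40 and -0.16 in Cre_control libraries 1 to 5. SPOP_CKI 5 was the lowest and Cre_control 4 the highest. In SPOP_CKI 3 the members spread from -1.82 at the 10th percentile to 1.19 at the 90th, a width of 3.01. The other SPOP_CKI libraries had widths of 0.821 to 1.48. Widths in Cre_control were 0.264 to 0.806, but these libraries are part of the mean from which they were measured, so they are not a like comparison.

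The deviations moved with transcript GC content in that library and in others. In SPOP_CKI 3 the 28 members of highest GC content (at least 53.7%) had a median deviation of -0.39 and the 28 of lowest GC content (at most 49.3%) one of 0.51. Across the 82 tested members, Pearson's r between GC content and deviation was -0.29 in SPOP_CKI 3, -0.43 in SPOP_CKI 5 and 0.31 in Cre_control 4 (Spearman's rho -0.37, -0.45 and 0.31). Over the 14201 tested genes with a GC content, r was -0.42 in SPOP_CKI 3, -0.30 in SPOP_CKI 5 and 0.31 in Cre_control 4. The log2 fold change itself had r = -0.37 and rho = -0.45 with GC content over the 82 members, and r = -0.38 and rho = -0.41 with SPOP_CKI 3 left out. These are descriptions across genes of the same libraries, and genes are not independent replicates. The calls with each library centred by GC content are those given above.

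**Figure D4:**
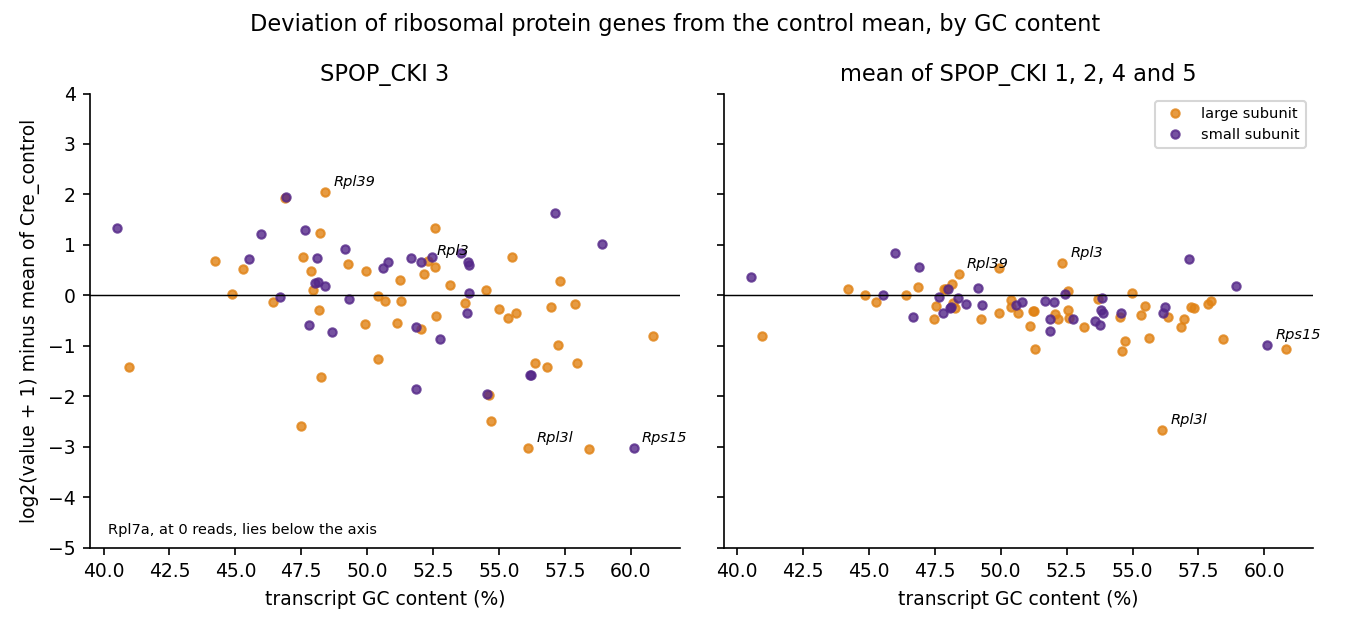
Transcript GC content in percent (horizontal axis) against the deviation from the Cre_control mean on the log2 scale (vertical axis), one point per tested member, for SPOP_CKI 3 on the left and the mean of the other SPOP_CKI libraries on the right. Points of high GC content tend to lie lower, and in the right panel Rpl3l lies far below the other members.

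The members' neighbours in protein synthesis were described from lists, each read beside the 22.3% background, or beside 30.8% where the 3 libraries with Xist reads were left out. Mitochondrial ribosomal proteins, a separate family that builds the ribosome of mitochondria, had 1 member higher and 31 lower of 77 tested, with a median log2 fold change of -0.52. Their examples were Mrpl14 (log2 -1.79, limma adjusted p = 0.00671), Mrps26 (log2 -1.61, limma adjusted p = 0.00411) and Mrps12 (log2 -1.44, limma adjusted p = 0.00623). Without the 3 libraries with Xist reads 0 were higher and 52 lower, and without SPOP_CKI 3 alone 1 was higher and 42 lower, where 30.8% and 31.0% of all genes were called. The difference between the cytosolic and the mitochondrial family was not tested.

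Ribosome biogenesis factors, which process ribosomal RNA and fit the proteins to it, had 11 members higher and 4 lower of 50, and 13 higher and 4 lower without the 3 libraries with Xist reads. Nop58, a core protein of small nucleolar ribonucleoproteins, averaged 655 ± 240 scaled reads in SPOP_CKI hearts, against 277 ± 50.7 in Cre_control (log2 1.19, limma adjusted p = 0.00582). Mdn1, the ATPase that removes assembly factors from the large subunit, was higher (log2 1.23, limma adjusted p = 0.0288), and Nop53, an assembly factor of the large subunit, was lower (log2 -1.65, limma adjusted p = 0.00505).

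RNA polymerase I and its factors, which make ribosomal RNA, had 2 higher and 1 lower of 15. Polr1e, a polymerase subunit, averaged 1092 ± 358 scaled reads in SPOP_CKI hearts, against 297 ± 64.2 in Cre_control (log2 1.83, limma adjusted p = 0.000830). Rrn3, the initiation factor, was higher (log2 0.60, limma adjusted p = 0.0201) and Ubtf, the upstream binding factor, lower (log2 -0.81, limma adjusted p = 0.0476).

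Translation factors were mixed. Initiation factors had 3 higher and 3 lower of 37, with Eif1a (log2 1.25, limma adjusted p = 0.00819) and Eif5 (log2 1.13, limma adjusted p = 0.00378) higher and Eif3g (log2 -1.06, limma adjusted p = 0.00315) lower. Without the 3 libraries with Xist reads, 2 initiation factors were higher and 7 lower. The list of elongation factors, which also holds related genes such as Eef1e1 and the kinase Eef2k, had 2 higher and 3 lower of 10. Those higher were Eef1e1 (log2 1.42, limma adjusted p = 0.00424) and Eif5a2 (log2 1.203, limma adjusted p = 0.01099). Eef2k, the kinase that inhibits elongation factor Eef2, averaged 395 ± 94.1 in SPOP_CKI and 1065 ± 151 in Cre_control (log2 -1.45, limma adjusted p = 0.000634). Other messenger RNAs with a TOP element had 0 higher and 3 lower of 22, among them Eif4b (log2 -0.68, limma adjusted p = 0.00496).

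mTORC1 and its regulators had 2 higher and 5 lower of 36, and 3 higher and 10 lower without the 3 libraries with Xist reads. The largest changes were in Ddit4, an mTORC1 inhibitor induced by stress (log2 -2.91, limma adjusted p = 0.00896), Eif4ebp1, the translation repressor that mTORC1 phosphorylates (log2 -1.55, limma adjusted p = 0.00552), and Akt1s1, an inhibitory subunit (log2 -1.51, limma adjusted p = 0.0204). The Myc family had 0 higher and 3 lower of 9, namely Mnt, Mxd4 and Max. Factors of ribosome rescue and quality control had 2 higher and 5 lower of 17, with Edf1 (log2 -1.37, limma adjusted p = 0.00896) and Ascc1 (log2 -1.24, limma adjusted p = 0.000731) among those lower.

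**Figure D5:**
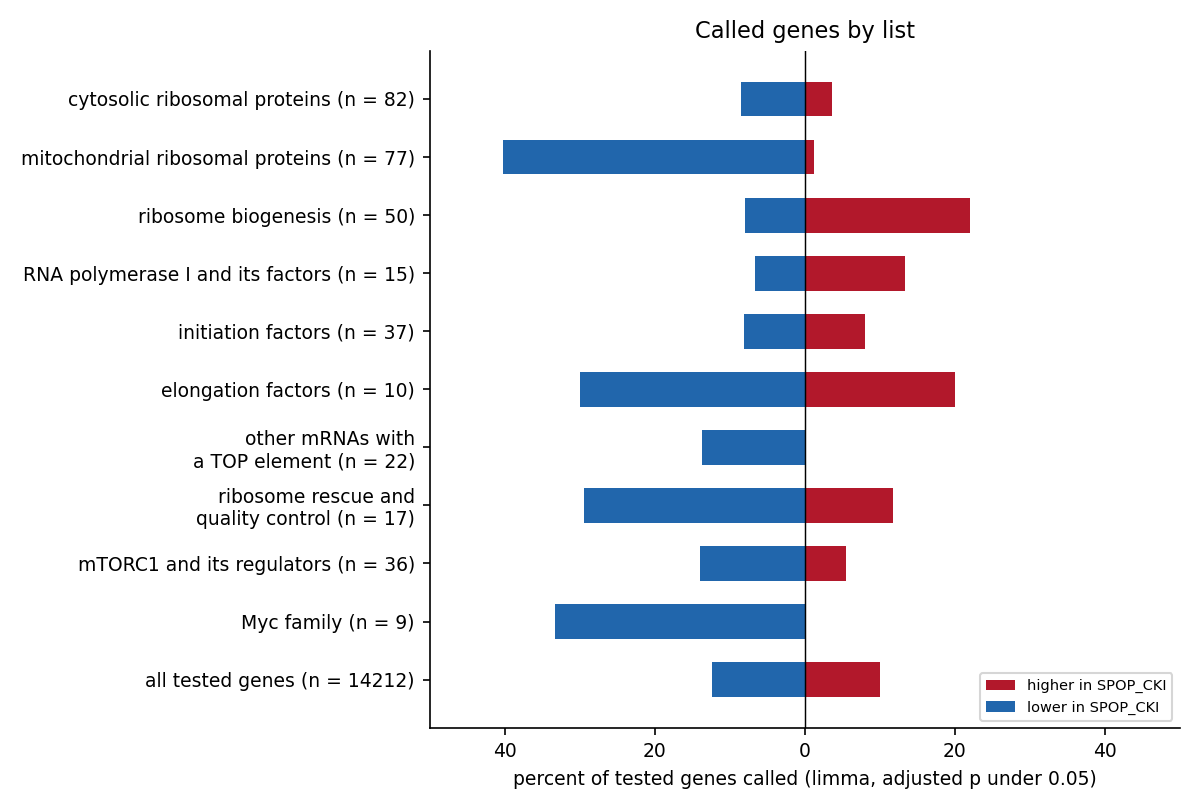
Percent of the tested genes of each list (horizontal axis) called higher (red, right) and lower (blue, left) in SPOP_CKI against Cre_control, with the number tested and all tested genes at the bottom. The cytosolic ribosomal proteins show 3 higher and 7 lower of 82, and the mitochondrial ribosomal proteins 1 higher and 31 lower of 77.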

How the data were processed

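Libraries of poly(A) RNA from 5 SPOP_CKI and 5 Cre_control hearts were grouped by genotype and title in the labels. The submitters' processing notes name featureCounts 1.5.0-p3, DESeq2 1.20.0 and the build mm10; aligner, annotation and strand setting are not given in the labels. The signal deposited per library is reads divided by a size factor, and 100% of values returned to whole reads (tolerance 0.001). The authors also deposited a log2 fold change and p-value per gene. All per-sample columns were used (0 left out).

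The test was limma 3.58.1 in R 4.3.3 (trend and robust variances) on log2(value + 1), genotype the sole term, two-sided, over the 14212 genes that reached 10 scaled reads in 5 or more libraries. Benjamini-Hochberg adjustment at 0.05 was over all genes tested. The pseudocount understates fold changes of low genes. The fit was tested on simulated data with 200 changed genes among 13975, each gene drawn independently. There it recovered 30% of changes of 1 and 92% of changes of 2 on the log2 scale. It made 122 true and 5 false calls there. In the real data 22.3% of genes tested were called, so the shares recovered may differ. A gene that was not called may thus still have changed. Alternatives (22) were edgeR 4.0.16 and DESeq2 1.42.0 on recovered reads, TMM or quantile scaling, pseudocounts of 0.5 and 5, no filter, array weights, a replicate block, centring by gene length or by GC content within 20 bins, leaving out each library, and, chosen after seeing the data, leaving out the 3 libraries with Xist reads. Paralog shares were also set on transcript length, chosen likewise.

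Members and lists (pathways and cell type markers) were chosen with earlier results of these data known, and the pseudogene entries were added after seeing the data. Named genes were members with a paralog and their partners, members with a role beyond the subunit, the called members of largest fold change in each direction, the 3 highest per kilobase of gene model, genes the symbols miss, and up to 3 called genes of largest fold change per list. Not every gene that this rule takes is reported here. GC content came from GENCODE M21 (GRCm38), where all 84 members matched by position, and promoters from RefSeq, where 64 members matched. The labels number hearts 1 to 5 in each group but name no litter or batch. The lowest chi-square per degree of freedom within a group was 13.5, so no pair of libraries was counted as 1 sample. The p-values reflect library-to-library spread, which may be technical.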

Additional observations from a re-analysis of the deposited data

Results flagged for a closer look

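Of 78 groups of 5 libraries examined, 10 held a library far from the other 4, with a gap of more than 0.71 of the group's range. Chance gives about 1 in 20. Of these, 4 were in SPOP_CKI 3, where Rpl22 stood at 6069 scaled reads (others 1604 to 2807), Rpl7 at 11282 (others 6862 to 7257), Rps6 at 9364 (others 4918 to 6054) and Rpl26 at 10785 (others 3875 to 5556). In SPOP_CKI 5, Rpl3l stood at 932 (others 294 to 434).

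A further 3 were in Cre_control 4, where Rps19 stood at 4715 scaled reads (others 2358 to 2914), Rps25 at 6286 (others 3919 to 4413) and Rps19bp1 at 161 (others 78.2 to 95.5). In Cre_control 1, Rps27a stood at 2905 (others 933 to 1107). In Cre_control 5, Rps3a1 stood at 4958 (others 7092 to 7807).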

How the results depend on the processing

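The median of the members kept its direction in every alternative but the centring by gene length (0.06), and leaving out a library gave -0.26 to -0.09. The number of members called higher was 3 in most alternatives, 5 with array weights, and 3 to 6 when a library was left out. The number called lower was 12 with DESeq2, 4 without a filter on low values, 14 with array weights, 3 with centring by GC content, 12 without the 3 libraries with Xist reads, and 1 to 10 when a library was left out. The difference Rpl3l minus Rpl3 was -3.71 to -3.23 when a library was left out. With the replicate number as a block, 3 members were higher and 10 lower, and 2946 of all genes were called; deviations of same-numbered libraries correlated at 0.03 to 0.16, not all over 0.1, and best with each other for numbers 1 and 3 alone, so the numbers were not taken as pairs. None of the 10 called members changed sign in these 22 alternatives. The share of all genes called ranged from 10.5% without a filter to 37.4% with array weights. It was 29.14% with DESeq2 and 17.99% with centring by GC content. The cause of these shifts was not tested.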

Other observations

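The other cell type marker lists gave these counts of tested genes, where 10% of all genes were called higher and 12.3% lower. Of 8 fibroblast markers, 1 was higher and 0 lower in SPOP_CKI, and 5 were higher without the 3 libraries with Xist reads, where 30.8% of all genes were called. Of 7 smooth muscle and pericyte markers, 0 were higher and 1 lower. Of 9 macrophage and monocyte markers, 2 were higher and 0 lower. All 3 tested neutrophil markers were higher. Of 5 erythroid markers, 0 were higher and 4 lower, with Hba-a1 at 2666 ± 427 scaled reads in SPOP_CKI hearts, against 6883 ± 1636 in Cre_control (log2 -1.35, limma adjusted p = 0.00120). The single tested T cell marker, the single tested B cell marker and the 4 tested proliferation markers gave 0 calls by limma.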
